A study of Homo sapiens with 5 samples.

Results

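The proteasome is the large protease that degrades proteins tagged with ubiquitin. Its 20S core is a stack of outer alpha rings, which gate entry, and inner beta rings, in which PSMB5, PSMB6 and PSMB7 carry the cutting sites. After interferon gamma, PSMB8, PSMB9 and PSMB10 replace PSMB5, PSMB6 and PSMB7 in newly built particles, which form the immunoproteasome and favour peptides that MHC class I molecules can present. The 19S regulator caps the core: a base with a ring of ATPases (PSMC genes) unfolds substrates, and a lid holds the deubiquitinase PSMD14. Dedicated chaperones build core and regulator.

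Proteasome subunits and assembly factors are described here in 5 libraries of A549, an established human lung adenocarcinoma line. Members were taken by gene symbol, without regard to measured values: every PSM symbol of the series A to G followed by a number, and PSMF1. They came to 48 of the 58929 genes in the files. They comprise 8 alpha ring genes, 4 beta ring genes without a catalytic site, 3 constitutive catalytic genes, 3 immunoproteasome genes and the thymus subunit PSMB11. In addition there are 6 base ATPases, 3 other base subunits, 8 lid subunits, 3 base chaperones, 4 core chaperones, 4 activators and 1 inhibitor.

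The groups were RBMS1 knockdown (1 library each of hairpins sh1088 and sh1196), an sh control (1 library), RBMS1 overexpression (1 library, named R1A) and a pCDH control (1 library). All libraries come from stably modified A549 cells. RBMS1 is an RNA-binding protein, and the series title ties it to lung cancer progression. The design text calls the libraries ribosome footprint profiling, although their molecule label reads total RNA. "Footprint" is used in the sense of the design text. To freeze ribosomes on their mRNA, cells were exposed for 15 min to 100 ug/mL of cycloheximide, and RNase I then acted on the lysates for 5 min. Sources used here give neither the promoters and vectors nor the number of clones. Nothing ties the libraries to separate cultures beyond their hairpins, so p-values here reflect the variation among these libraries alone, and that variation may be technical.

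Libraries held 10327747 to 13980843 expected counts. Nuclear protein-coding genes took 37.7% to 66.3% of them, and mean fragment lengths were 40.9 to 52.3 nt. RBMS1 itself stood at 18.2 scaled CPM in sh1088 and 13.5 in sh1196, against 30.6 in the sh control. In edgeR's quasi-likelihood test the knockdown estimate for RBMS1, -0.93 on the log2 scale (SE 0.45), missed the threshold (adjusted p = 0.828). It stood at 37.2 scaled CPM in the overexpression library, against 24.8 in the pCDH control, a log2 ratio of 0.59 (95% counting interval 0.39 to 0.78). Scaled CPM are CPM after TMM, a normalization on the bulk of genes. All 9 epithelial markers of A549 were detected in every library. Of the immune markers, PTPRC, CD3E, MS4A1 and NKG7 had 0 counts in every library, while the macrophage markers CD68 and CD14 had 172 to 1531 and 55 to 363 counts, both highest in the pCDH control. CDKN2A and its neighbour MTAP were both read as genes deleted in A549, and they went different ways. CDKN2A had 0 to 4 counts, but MTAP had 288 to 604 counts, and the reason was not tested. Fibroblast markers summed to 1.12 to 11.9 CPM and endothelial markers to 0.194 to 1.34 CPM, and the part of other cell types in the results was not tested.

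Promoters of the 3 immunoproteasome genes are printed because these genes are known to be interferon-inducible and differed from each other in these libraries. Each runs from 250 bases before to 50 bases after the RefSeq start in build GRCh38.p14, 5′ to 3′ on the gene's strand. Capitals mark matches to 3 of the motifs searched.
PSMB8, chr6:32844630-32844929, minus strand: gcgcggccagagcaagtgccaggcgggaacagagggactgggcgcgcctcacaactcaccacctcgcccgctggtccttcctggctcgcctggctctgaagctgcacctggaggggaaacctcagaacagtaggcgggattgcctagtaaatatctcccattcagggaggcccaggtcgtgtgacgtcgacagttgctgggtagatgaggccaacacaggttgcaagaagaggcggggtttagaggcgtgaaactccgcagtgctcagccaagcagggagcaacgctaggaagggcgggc
PSMB9, chr6:32853942-32854241, plus strand: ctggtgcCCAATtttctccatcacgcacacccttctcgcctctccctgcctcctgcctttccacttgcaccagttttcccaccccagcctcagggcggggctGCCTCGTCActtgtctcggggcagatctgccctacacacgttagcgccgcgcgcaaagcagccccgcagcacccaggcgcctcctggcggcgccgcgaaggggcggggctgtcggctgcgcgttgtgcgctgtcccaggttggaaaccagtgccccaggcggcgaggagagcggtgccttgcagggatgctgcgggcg
PSMB10, chr16:67936801-67937100, minus strand: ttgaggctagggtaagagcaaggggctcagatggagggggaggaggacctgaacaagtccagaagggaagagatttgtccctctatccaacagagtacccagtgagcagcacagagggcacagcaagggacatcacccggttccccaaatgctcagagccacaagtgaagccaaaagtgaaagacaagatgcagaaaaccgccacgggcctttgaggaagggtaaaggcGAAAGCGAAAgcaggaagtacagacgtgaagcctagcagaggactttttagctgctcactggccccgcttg
The PSMB10 window holds the interferon-response letters GAAAGCGAAA from base -21 of the start. The PSMB9 window holds CCAAT from base -243 and, on the reverse strand, the antioxidant-response letters from base -148. None of the letters searched was found in the PSMB8 window.

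The motifs were searched on both strands, with overlaps between motifs allowed, in the 42 members whose promoter was in the table. PSMB1, PSMB6, PSMB7, PSMA7, PSMD4 and PSMG3 were not in it. The interferon-response letters, GAAA, any 2 bases and GAAA again, stood in 6 of the 42 (14.29%), against 3.574% of all 35116 promoters. Their 6 genes are PSMA4, PSMB4, PSMB10, PSMG4 and both PA28 genes of the interferon-inducible activator, PSME1 and PSME2. The antioxidant-response letters TGACNNNGC stood in 13 of the 42 (30.95%), against 13.35% of all promoters. Gamma-activated-site letters TTCNNNGAA were in 6 (14.29%, against 7.657%), and CCAAT in 18 (42.86%, against 34.61%). For each member a single promoter was kept, while the 35116 take in every promoter listed, without such a choice per gene. The shares of members and of all promoters are therefore of unlike units. These matches are descriptions of the letters only.

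One member could hardly be seen in these data, and its sequence is shown for that reason. PSMC1, an ATPase of the base that every 26S proteasome holds, had 10 counts in sh1088 and 9 in sh1196, against 2 in the sh control. It had 5 counts in the overexpression library, against 6 in the pCDH control. Levels between genes are compared as coding RPKM, which is RPKM computed here from the reading frame's length and the nuclear protein-coding reads. PSMC1 had a coding RPKM of 0.35 to 1.53, while the other 16 regulator subunits had medians of 93.4 to 124 in the 5 libraries. Each of its 1291 coding 30-mers (100%) also occurs in a gene elsewhere, and 99.5% of its 45-mers do. The genes that hold them are 13 annotated pseudogenes. The nearest, PSMC1P1, differs by 1 base over 1320 coding bases. Both are shown over 40 bases in GENCODE 29 coordinates of GRCh38, with the differing base in capitals, the substitution T4A counted from 1 at the 5′ end.
PSMC1, chr14:90269397-90269436, plus strand: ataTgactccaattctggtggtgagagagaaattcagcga
PSMC1P1, chr3:68636586-68636625, plus strand: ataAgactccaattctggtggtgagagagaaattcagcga
The 13 pseudogenes together held only 2 and 3 counts in sh1088 and sh1196, 0 in the sh control, 4 in the overexpression library and 0 in the pCDH control. No source used here says how the deposited counts treated reads with several matches, and the part of shared sequence in the low count was not tested.

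**Figure D1:**
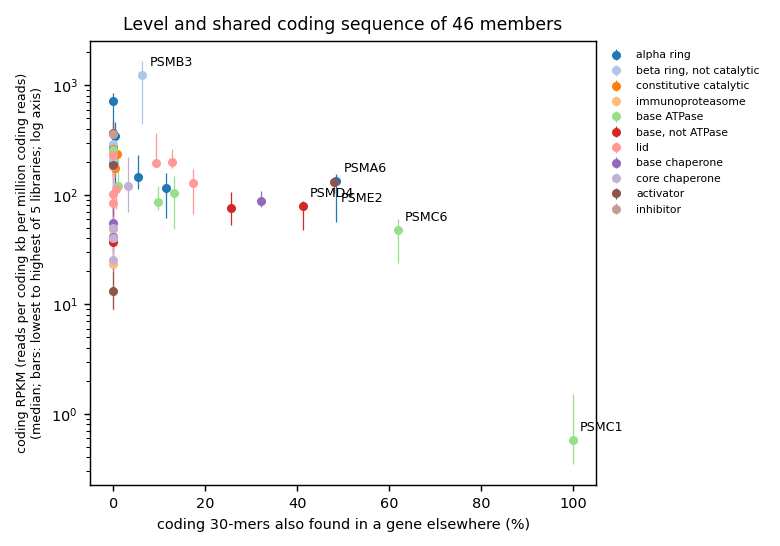
Level of 46 members (coding RPKM, log axis) against the share of coding 30-mers that also occur in a gene elsewhere (%). Points are medians and bars run from the lowest to the highest of the 5 libraries; PSMC1 stands alone at 100% and a level between 0.35 and 1.53.

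Shared coding sequence was common among the members, since 21 of 48 shared at least 1 coding 30-mer with a gene elsewhere. Shares of at least 25% were found for 7 of them. PSMC6, another base ATPase, shared 61.9%, the alpha subunit PSMA6 48.6% and the PA28 beta subunit PSME2 48.0%. PSMD4, the ubiquitin receptor Rpn10, shared 41.2%, most of it with the fusion retrogene PIPSL. PSMD10, the chaperone also called gankyrin, shared 32.2% and the large base subunit PSMD2 shared 25.7%. Exons of 8 members also overlap another gene on the same strand: PSMA1, PSMA2, PSMA6, PSMB9, PSMB10, PSMD9, PSME2 and PSMF1. All these genes have uncertain counts. Expected counts can be split between partners on the same strand. PSMC6, PSMD2, PSMD4 and PSMD10 have no such overlap, and their counts were whole numbers in every library, as in 135 for PSMC6 in the sh control. No split shows in those counts, and whether reads with several matches were left out was not tested.

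PSMA8, the alpha subunit of testis, and PSMB11, the catalytic subunit of thymic cortical epithelium, had 0 counts in all 5 libraries. A count of 0 allows up to 3 counts, or 0.215 to 0.29 CPM depending on the library. The remaining 46 members were detected in every library. Together they took 0.725% of nuclear protein-coding counts in sh1088 and 0.745% in sh1196, against 0.751% in the sh control. They took 0.798% in the overexpression library, against 0.561% in the pCDH control. The share in the pCDH control lies below those of the other libraries. Of all counts the shares were 0.306% and 0.492% in sh1088 and sh1196, 0.284% in the sh control, 0.498% in the overexpression library and 0.372% in the pCDH control. Intervals here and below hold only the error of counting, because PCR can copy 1 molecule many times. In bulk libraries fewer cells of a kind and fewer footprints per cell cannot be told apart.

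Subunits that sit in the core in equal number did not have equal footprint levels. No separate RNA libraries were among the 5, so mRNA amount and footprints on each mRNA cannot be told apart. Coding RPKM also counts reads of a gene that lie outside its reading frame. PSMB3, a beta ring subunit without a catalytic site, was the highest of the 14 constitutive core genes in coding RPKM in every library. It had a coding RPKM of 1319 and 1241 in sh1088 and sh1196, and 1672 in the sh control. In the overexpression library it had 1225 on that scale, and in the pCDH control 444. The median core gene stood at 147 to 267 on that scale. PSMA7 came next except in the pCDH control, where PSMB1 did. It had 714 and 758 on that scale in the knockdown libraries, 570 in the sh control, 857 in the overexpression library and 302 in the pCDH control. The highest core gene exceeded the lowest by 7.86 to 24.3 times, with PSMA1, PSMA2 or PSMA6 lowest. Those 3 overlap other genes on the same strand, and among the 11 core genes without such an overlap the ratio was 4.63 to 8.18. By the authors' TPM the ratio was 22.5 to 34.1, with PSMB2 lowest in each library. TPM divides by the whole transcript, and the length used for PSMB2 was 2815 to 4426 nt for a reading frame of 603 nt.

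**Figure D2:**
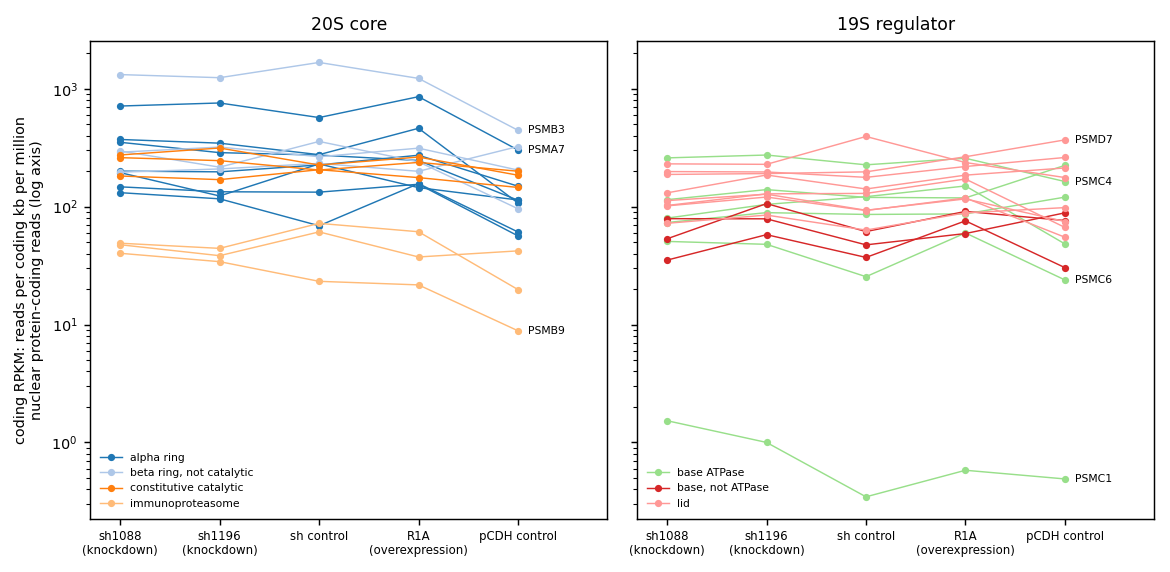
Level of each 20S core gene (left) and 19S regulator gene (right) in the 5 libraries, as coding RPKM on a log axis; lines join 1 gene. PSMB3 lies above every other core gene, the 3 immunoproteasome genes lie below most of the constitutive core, and PSMC1 lies below all.

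With PSMC1 set aside, the highest of the other 16 regulator subunits exceeded the lowest by 4.48 to 15.5 times in coding RPKM within a library. The largest ratios, 15.5 in the sh control and 15.4 in the pCDH control, had PSMC6 as the lowest gene, at 25.5 and 23.9. PSMC6 shares 61.9% of its coding 30-mers with genes elsewhere, and the ratio without it was not computed. The ATPase PSMC4 was highest in sh1088 and sh1196, at a coding RPKM of 259 and 274, and PSMD11, a lid subunit, was highest in the sh control at 394. By TPM, PSMC4 was highest in the sh control as well, at 27.47, against 22.85 for PSMD11. The lid subunit PSMD7 led in the overexpression library at 265 and in the pCDH control at 368. Assembly chaperones, which leave the finished particle, had lower levels. The medians of the 7 chaperones, in coding RPKM, were 49.7 and 42.0 in sh1088 and sh1196, 60.8 in the sh control, 46.5 in the overexpression library and 64.4 in the pCDH control.

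In the immunoproteasome, each inducible subunit had a lower level than the constitutive subunit it replaces, in every library. By TPM, PSMB8 took 14.1% and 12.4% of the PSMB8 and PSMB5 pair in sh1088 and sh1196, and 18.1% in the sh control. PSMB8 took 16.5% in the overexpression library, against 8.47% in the pCDH control. The pCDH control was thus lowest and the sh control highest for this pair. PSMB9 took 16.1% and 12.7% of its pair with PSMB6 in sh1088 and sh1196, against 12.6% in the sh control. In the overexpression library PSMB9 took 10.0%, against 5.86% in the pCDH control. PSMB10 took 13.1% and 13.9% of its pair with PSMB7 in the knockdown libraries, against 27.5% in the sh control. It took 13.4% in the overexpression library, against 20.5% in the pCDH control. The share of PSMB10 was thus higher in both controls than in the modified libraries, an order that the shares of PSMB8 and PSMB9 did not have. PSMB10 overlaps AC040162.1, with which it shares 54.9% of its coding 30-mers, so its counts are uncertain.

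**Figure D3:**
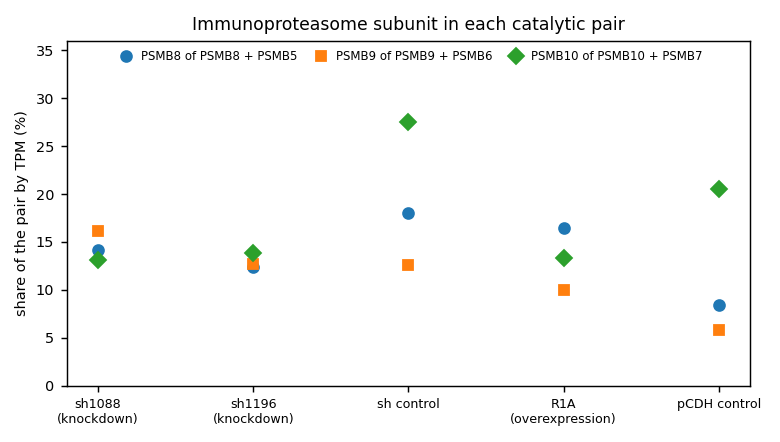
Share of each immunoproteasome subunit in its pair with the constitutive subunit it replaces, by TPM (%), in the 5 libraries. PSMB8 and PSMB9 are lowest in the pCDH control, at 8.47% and 5.86%; PSMB10 is highest in the sh control, at 27.5%.

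Knockdown libraries were set against the sh control to ask whether depletion of RBMS1 changes footprints on proteasome genes. No member passed the threshold of 0.05 on adjusted p. The count was 0 of 46 tested members in edgeR's quasi-likelihood test, against 0 of 14913 genes (0%). At an unadjusted p under 0.05 it was 0 members, against 5.87% of genes. DESeq2 called 0 members, against 0.0939% of genes, and limma-voom called 0 members and 0 genes. The 46 are those that passed the filter on low counts, and the test has 1 residual degree of freedom. The median log2 fold change was 0.09 over the members and 0.07 over all genes tested. With only sh1088 the members' median was -0.12, and with only sh1196 it was 0.09. The hairpins lay on the same side of 0 for 38 members, 19 above and 19 below, and on opposite sides for 8, but they share 1 control. The authors' deposited table called 0 of 46 members at an adjusted p of 0.05, against 3.46% of genes.

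The member with the smallest p was PSMG3, a chaperone of core assembly (chr7:1567330-1571005, minus strand). PSMG3 had 26.4 and 16.0 scaled CPM in sh1088 and sh1196, against 43.3 in the sh control, 14.1 in the overexpression library and 23.7 in the pCDH control. The sh control was the highest of the 5. Knockdown gave an edgeR estimate of -1.01 log2 (SE 0.48, adjusted p = 0.828), and it was the only member at least 2-fold lower, against 8.5% of all genes. At least 2-fold higher was PSMC1 alone, against 12.5% of all genes. From its 10 and 9 counts against 2, the log2 ratios were 2.05 (95% counting interval -0.13 to 5.33) for sh1088 and 1.47 (-0.76 to 4.76) for sh1196. Both intervals span 0.

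The other members had edgeR estimates within 2-fold of the sh control. PSMC6, the base ATPase, had 31.4 and 30.8 scaled CPM in the knockdown libraries, against 16.6 in the sh control, 40.04 in the overexpression library and 15.4 in the pCDH control. Both controls were below the other 3 libraries. In edgeR the knockdown estimate for PSMC6 was 0.92 log2 (SE 0.46, adjusted p = 0.828). PSMA2, which overlaps another gene over its whole coding sequence, showed a like order, with 47.3 and 43.6 scaled CPM in the knockdown libraries, 26.1 in the sh control, 60.9 in the overexpression library and 22.9 in the pCDH control. The edgeR estimate for PSMA2 was 0.82 log2 (SE 0.46, adjusted p = 0.828).

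Among lid subunits, PSMD11, which helps hold lid and base together, had 149.7 and 154 scaled CPM in sh1088 and sh1196, against 269 in the sh control. It had 166 in the overexpression library, against 119 in the pCDH control. The sh control stood above the other 4. Its log2 change was nearly equal for the hairpins, -0.81 for sh1088 and -0.80 for sh1196 (edgeR log2 fold change -0.81, SE 0.49, adjusted p = 0.828). PSMD9, a base chaperone, had 18.8 and 14.4 scaled CPM in the knockdown libraries, against 29.4 in the sh control, 16.5 in the overexpression library and 27.9 in the pCDH control. The edgeR estimate for PSMD9 was -0.81 log2 (SE 0.45, adjusted p = 0.828). PSMD4 had 46.2 and 47.9 scaled CPM in the knockdown libraries, against 29.1 in the sh control, 37.3 in the overexpression library and 53.9 in the pCDH control. For PSMD4 the edgeR estimate was 0.70 log2 (SE 0.45, adjusted p = 0.828).

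The immunoproteasome genes did not share a direction in knockdown. PSMB8 (chr6:32840717-32844703) had 20.8 and 19.5 scaled CPM in sh1088 and sh1196, against 32.2 in the sh control. PSMB9 (chr6:32844136-32859585) had 13.5 and 11.9, against 8.24. PSMB10 (chr16:67934502-67937087) had 20.0 and 16.7, against 26.9. The sh control was thus above both hairpins for PSMB8 and PSMB10 and below both for PSMB9, the neighbour of PSMB8 on the opposite strand. Knockdown log2 fold changes were -0.66 (SE 0.43) for PSMB8, 0.64 (SE 0.52) for PSMB9 and -0.54 (SE 0.44) for PSMB10, with edgeR adjusted p of 0.828, 0.858 and 0.858.

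**Figure D4:**
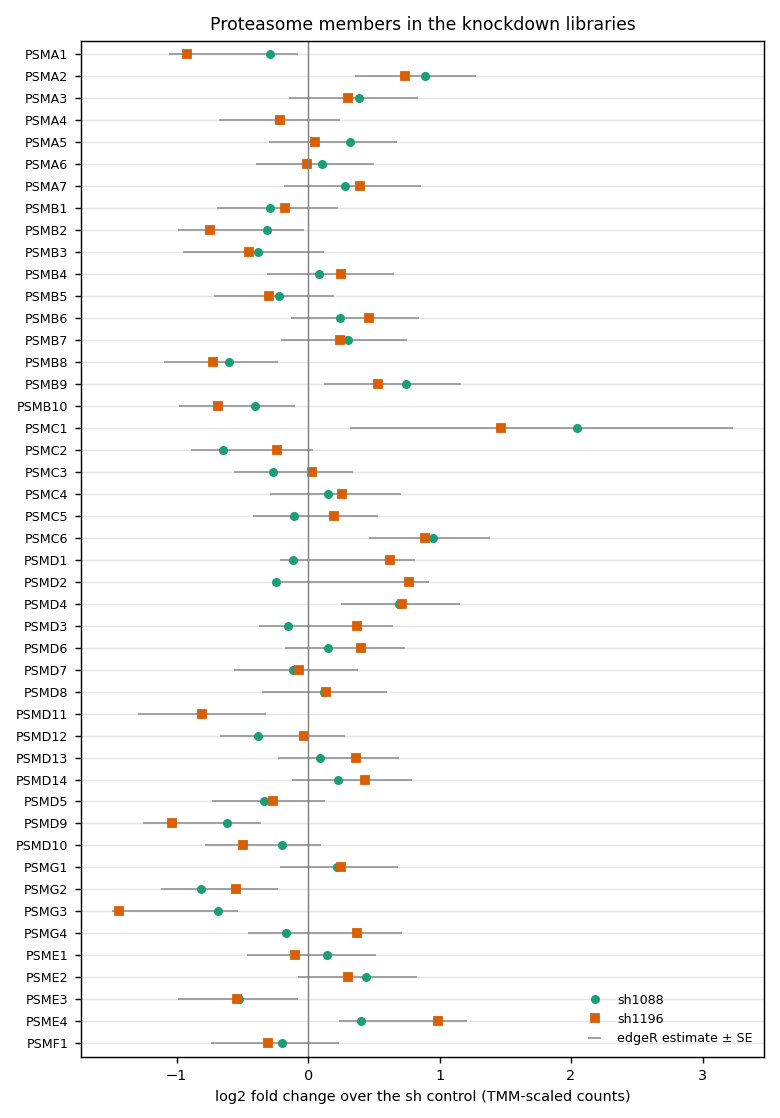
Log2 fold change over the sh control for sh1088 (circles) and sh1196 (squares) in the 46 tested members, with the edgeR estimate ± SE as a grey bar. Most points lie within 1 log2 unit of 0; both points of PSMC1 and the sh1196 points of PSMG3 (-1.44) and PSMD9 (-1.03) lie past it, and none of these genes passed the test.

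The constitutive catalytic subunits had knockdown estimates close to 0. PSMB5 had 73.6 and 71.2 scaled CPM in the knockdown libraries, against 87.6 in the sh control, 77.0 in the overexpression library and 61.3 in the pCDH control. PSMB6 had 101 and 120.01 in the knockdown libraries, against 87.2 in the sh control, 105 in the overexpression library and 70.7 in the pCDH control. PSMB7 had 111 and 109 in the knockdown libraries, against 91.6 in the sh control, 109 in the overexpression library and 88.7 in the pCDH control. The pCDH control was the lowest library for all 3. Knockdown log2 fold changes were -0.26 (SE 0.46), 0.35 (SE 0.49) and 0.28 (SE 0.48) for PSMB5, PSMB6 and PSMB7, with edgeR adjusted p of 0.93, 0.907 and 0.93.

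Overexpression of RBMS1 was compared with the pCDH control as 1 library against 1, so it has no replicate check and no p. Of 45 members with a mean CPM of 1 or more, 16 were at least 2-fold higher, against 16.3% of all 13931 genes. Only PSMG4 was at least 2-fold lower, against 17.8% of all genes. The median log2 ratio was 0.49 over the members and 0.01 over all genes. Counting intervals lay above 0 for 30 members, against 38.4% of genes, and below 0 for 11, against 36.7%. The core led: 7 of its 14 constitutive genes were at least 2-fold higher and 13 were above 0 (median 1.05). In the 19S regulator 5 of 16 genes were at least 2-fold higher (median 0.39), and the 7 assembly chaperones had a median of -0.20.

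**Figure D5:**
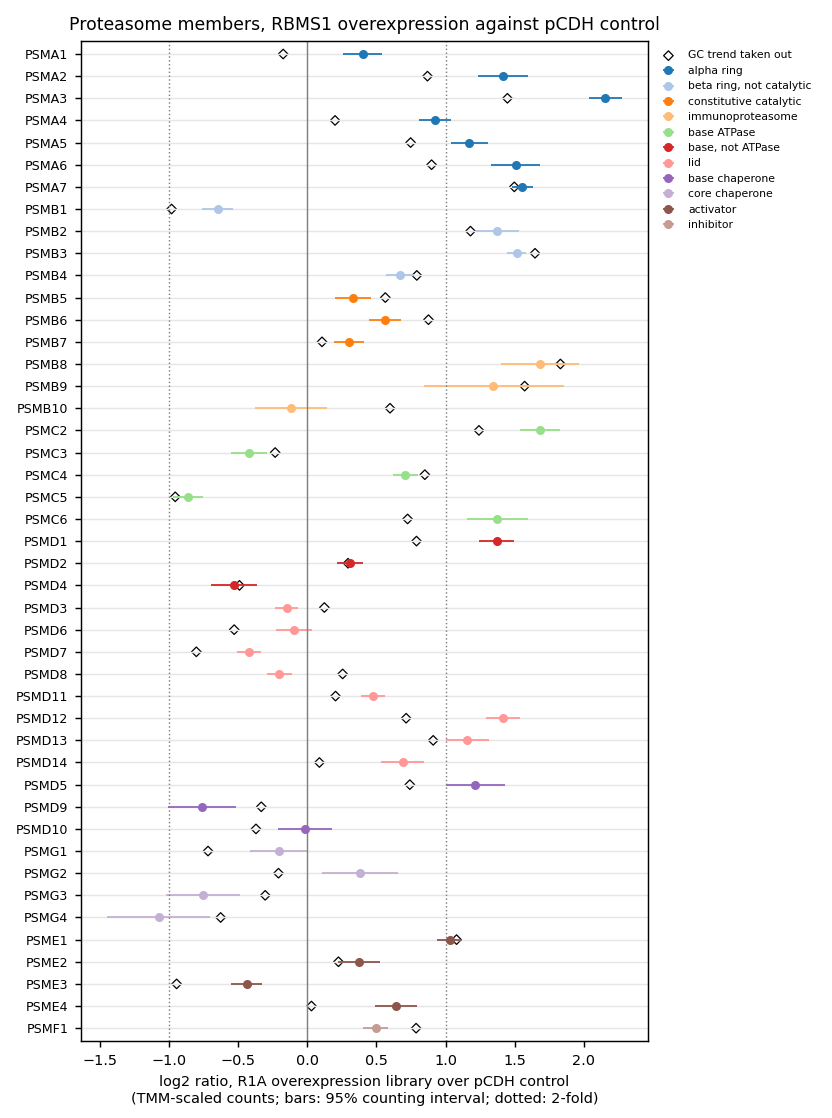
Log2 ratio of the overexpression library over the pCDH control for 45 members, with 95% counting intervals; colours give the role in the proteasome, and open diamonds give the ratio with the trend on coding GC content taken out. The 7 alpha ring genes lie between 0.40 and 2.16, whereas 3 of 4 core chaperones lie below 0.

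All 7 measured genes of the alpha ring, which gates the core, had ratios above 0, with a median of 1.41, and 5 were past 2-fold, against 16.3% of all genes. With the GC trend taken out the ring's median was 0.87 and PSMA1 was below 0, at -0.17. Then 2 of 7 were past 2-fold upward, against 10.3% of genes. Against the sh control the median was 0.31 and 1 of 7 was past 2-fold upward, against 11.5% of genes. PSMA3 (chr14:58244831-58272012, plus strand) had 196 scaled CPM in the overexpression library, against 43.9 in the pCDH control. The remaining libraries had 146 and 141 for PSMA3 in sh1088 and sh1196, against 114 in the sh control. The pCDH control was the lowest of all 5, and the log2 ratio of 2.16 (95% counting interval 2.04 to 2.28, or 4.46-fold) was the highest of any member. PSMA7 had 353 scaled CPM in the overexpression library, against 120.1 in the pCDH control, with 272 and 300.2 in the knockdown libraries and 229 in the sh control. Its log2 ratio was 1.55 (1.48 to 1.63).

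PSMA6 and PSMA5 had a like order. PSMA6 had 64.8 scaled CPM in the overexpression library, against 22.8 in the pCDH control, with 57.1 and 53.9 in the knockdown libraries and 54.1 in the sh control. PSMA5 had 98.7 in the overexpression library, against 43.8 in the pCDH control, with 130.3 and 111 in the knockdown libraries and 107 in the sh control. The pCDH control was lowest for both, and for PSMA5 the overexpression library lay below the 3 sh libraries. Log2 ratios were 1.51 (1.33 to 1.69) for PSMA6, 1.17 (1.04 to 1.31) for PSMA5 and 1.41 (1.24 to 1.59) for PSMA2. PSMA4 had a ratio of 0.92 (0.81 to 1.04). PSMA1 was the lowest of the ring at 0.40 (0.26 to 0.54), with 64.8 scaled CPM in the overexpression library, against 49.1 in the pCDH control, 80.5 and 52.9 in the knockdown libraries and 100.2 in the sh control.

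The beta ring split. PSMB3 had 417 scaled CPM in the overexpression library, against 146 in the pCDH control, with 416 and 407 in the knockdown libraries and 555 in the sh control. PSMB2 had 80.1 in the overexpression library, against 30.9 in the pCDH control, with 91.7 and 69.4 in the knockdown libraries and 116 in the sh control. Both had their lowest value in the pCDH control, with log2 ratios of 1.51 (1.45 to 1.58) for PSMB3 and 1.37 (1.22 to 1.53) for PSMB2. PSMB1, another beta ring subunit without a catalytic site, had the opposite sign, with 79.8 scaled CPM in the overexpression library, against 125 in the pCDH control. PSMB1 had 72.7 and 80.4 in the knockdown libraries and 90.8 in the sh control, so the pCDH control was its highest library. Its log2 ratio was -0.65 (-0.76 to -0.54), the only one below 0 among the 14 constitutive core genes. PSMB4 had a ratio of 0.67 (0.57 to 0.77), and the catalytic PSMB5, PSMB6 and PSMB7 had 0.33, 0.56 and 0.30.

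Of the immunoproteasome genes, 2 of 3 were past 2-fold upward, against 16.3% of all genes. PSMB8 had 28.1 scaled CPM in the overexpression library, against 8.75 in the pCDH control, a log2 ratio of 1.68 (1.40 to 1.97). PSMB9 had 7.89 in the overexpression library, against 3.11 in the pCDH control, a ratio of 1.34 (0.84 to 1.86). PSMB10 had 17.0, against 18.4, with a ratio of -0.12 (-0.38 to 0.14). For PSMB8 and PSMB9 the pCDH control was lowest of all 5 libraries; the overexpression library was within the range of the sh libraries for PSMB8 and just below them for PSMB9. The interval of PSMB10 spans 0. Raw CPM summed over the immune markers was 42.6 in the overexpression library, against 136 in the pCDH control. CD68 carried 27.9 CPM of it in the overexpression library, against 110 in the pCDH control, and CD14 carried 14.6 CPM, against 26.0. That sum ran opposite to PSMB8 and PSMB9, and its part was not tested.

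Genes of antigen presentation by MHC class I, which interferon gamma induces together with PSMB8 and PSMB9, were read beside them. Of 12 such genes, 2 were past 2-fold upward, against 16.3% of all genes, and 5 past 2-fold downward, against 17.8%, with a median log2 ratio of -0.81. This direction turned with the sh control in place of pCDH, where all 12 had ratios above 0 (median 0.49). With the GC trend taken out the median was -0.37. The transcription factor IRF1 was higher, at 1.02 (0.80 to 1.25). The class I heavy chains HLA-C at -2.24 (-2.50 to -2.00), HLA-B at -1.77 (-2.16 to -1.40) and HLA-E at -1.65 (-1.83 to -1.47) were lower. So was tapasin, TAPBP, the peptide editor of class I, at -1.04 (-1.13 to -0.94), which came to -0.37 with the GC trend taken out. In knockdown 0 of the 12 passed edgeR's threshold, and their median was 0.66. HLA-B at 2.48 (SE 0.62, edgeR adjusted p = 0.81) was the only one past 2-fold there, against 12.5% of all genes upward.

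In the 19S base, ATPases of the same ring went in different directions. PSMC2 had 108 scaled CPM in the overexpression library, against 33.5 in the pCDH control, with 53.3 and 72.3 in the knockdown libraries and 85.1 in the sh control. PSMC5 had 80.0 in the overexpression library, against 146 in the pCDH control, with 71.6 and 90.5 in the knockdown libraries and 78.7 in the sh control. The pCDH control was the lowest library for PSMC2 and the highest for PSMC5. Log2 ratios were 1.69 (1.54 to 1.83) for PSMC2, 1.38 (1.16 to 1.60) for PSMC6, 0.71 (0.62 to 0.80) for PSMC4, -0.42 (-0.55 to -0.29) for PSMC3 and -0.86 (-0.97 to -0.76) for PSMC5. PSMD1, the scaffold of the base, had 119.95 scaled CPM in the overexpression library, against 46.4 in the pCDH control, with 51.6 and 88.1 in the knockdown libraries and 57.2 in the sh control. Its ratio was 1.37 (1.24 to 1.50), against 0.31 (0.21 to 0.41) for PSMD2 and -0.53 (-0.70 to -0.37) for the ubiquitin receptor PSMD4.

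The lid had a median log2 ratio of 0.19 over 8 genes, 4 of them above 0. PSMD12 had 129.96 scaled CPM in the overexpression library, against 48.7 in the pCDH control, with 71.8 and 93.5 in the knockdown libraries and 95.6 in the sh control. PSMD13 had 74.4 in the overexpression library, against 33.3 in the pCDH control, with 59.0 and 72.9 in the knockdown libraries and 56.7 in the sh control. The pCDH control was the lowest library for both. PSMD7 had 143 in the overexpression library, against 191 in the pCDH control, with 93.5 and 98.8 in the knockdown libraries and 103 in the sh control, so both pCDH-arm libraries stood above the sh libraries. Log2 ratios were 1.42 (1.29 to 1.54) for PSMD12, 1.16 (1.01 to 1.31) for PSMD13 and -0.42 (-0.51 to -0.34) for PSMD7. The deubiquitinase PSMD14 had a ratio of 0.69 (0.53 to 0.85) and PSMD11 one of 0.48 (0.39 to 0.57). PSMD3, PSMD6 and PSMD8 lay between -0.20 and -0.10.

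Chaperones mostly lay at or below 0. Those of the core, PSMG1 to PSMG4, had a median ratio of -0.48, with PSMG2 highest. PSMG4 (chr6:3231403-3303373, plus strand), the partner of PSMG3, had 6.87 scaled CPM in the overexpression library, against 14.4 in the pCDH control, with 5.69 and 8.43 in the knockdown libraries and 6.52 in the sh control. The pCDH control alone was high, and the log2 ratio was -1.07 (-1.45 to -0.71). PSMG3 had a ratio of -0.75 (-1.02 to -0.49) and PSMG1 one of -0.20 (-0.41 to 0.00). PSMG2 had 17.6 scaled CPM in the overexpression library, against 13.5 in the pCDH control, with 14.5 and 17.7 in the knockdown libraries and 25.9 in the sh control, a ratio of 0.38 (0.11 to 0.66). Besides PSMG2, the base chaperone PSMD5 had an interval above 0, and it alone of the chaperones was past 2-fold upward, against 16.3% of all genes. PSMD5 had 38.9 in the overexpression library, against 16.8 in the pCDH control, 30.6 and 32.9 in the knockdown libraries and 39.5 in the sh control. Its ratio was 1.22 (1.00 to 1.43), against -0.76 (-1.01 to -0.52) for PSMD9 and -0.02 (-0.21 to 0.18) for PSMD10.

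Activators, which open the core without ATP, included 1 member past 2-fold upward, against 16.3% of all genes. PSME1, the PA28 alpha subunit, had 195 scaled CPM in the overexpression library, against 95.4 in the pCDH control, with 159 and 137 in the knockdown libraries and 147 in the sh control. Its ratio was 1.03 (0.94 to 1.12), while its ring partner PSME2 had 0.37 (0.22 to 0.52). PSME3, the nuclear PA28 gamma, had 82.9 in the overexpression library, against 112 in the pCDH control, with 74.7 and 75.7 in the knockdown libraries and 109.9 in the sh control, a ratio of -0.44 (-0.55 to -0.33). Both controls stood above the modified libraries for PSME3. PSME4, the PA200 activator, had 61.7 in the overexpression library, against 39.5 in the pCDH control, with 35.3 and 54.1 in the knockdown libraries and 27.3 in the sh control, a ratio of 0.64 (0.49 to 0.80). The core inhibitor PSMF1 had 163 in the overexpression library, against 116 in the pCDH control, with 152 and 144 in the knockdown libraries and 178 in the sh control, a ratio of 0.49 (0.40 to 0.59).

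The ratios depended on which control was used. Over the 45 members, 27 had their lowest scaled level of all 5 libraries in the pCDH control, against 29% of all genes, and 11 had their highest there, against 31.3%. Set against the sh control instead, the overexpression library had a members' median of 0.26 and 4 members at least 2-fold higher, against 11.5% of genes: PSMA2 at 1.22, PSMC6 at 1.27, PSMD1 at 1.07 and PSME4 at 1.18. Only PSMG3, at -1.62, was 2-fold lower, against 13.4% of genes. PSMA5, PSMB2, PSMB3, PSMB8, PSMB9 and PSMD5 then had ratios below 0. Set against the pCDH control, the knockdown libraries had a members' median of 0.39, with 12 members at least 2-fold higher, against 18.1% of genes, and 1 lower, PSMG4, against 15.1%. These comparisons share control libraries. Vector system and library make-up cannot be told apart here.

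Base composition moved with the ratio as well. Across 12244 coding genes the overexpression ratio fell with coding GC content (Spearman's rho -0.56 across genes, which are not independent replicates). Across the 45 members Pearson's r was -0.41 and Spearman's rho -0.41, all from the same pair of libraries. Members past 2-fold upward had a median coding GC of 45.9%, against 53.6% for members with ratios below 0. With the trend taken out, the members' median was 0.29, and 8 were at least 2-fold higher, against 10.3% of genes. They were PSMA3 at 1.45, PSMA7 at 1.50, PSMB2 at 1.18, PSMB3 at 1.65, PSMB8 at 1.83, PSMB9 at 1.57, PSMC2 at 1.24 and PSME1 at 1.08. None was 2-fold lower then, against 10.1% of genes, and the constitutive core had a median of 0.83. The result depended on the GC measure. With the trend on GC content of the whole transcript taken out instead, a setting that was not planned, the members' median was 0.44. Then 11 members were at least 2-fold higher, against 10.65% of genes. Mean fragment length also differed, at 40.9 nt in the overexpression library and 52.3 nt in the pCDH control, and its part was not tested.

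The authors' deposited table gave calls for overexpression, although each side holds 1 library among those used here. Its log2 fold changes did not differ from the ratios above by a constant. PSMA7 had 1.15 there against 1.55 above, PSMC6 1.42 against 1.38 and PSMB1 -0.46 against -0.65. Which libraries and model gave the deposited values was not established here. It called 14 of 46 members at an adjusted p of 0.05, against 25.4% of genes. Of these, 13 were higher, against 13.7% of genes, and 1 was lower, against 11.7%. In the authors' deposited table the highest log2 fold change among members was 1.81 for PSMA3 (adjusted p = 1.68e-07), and the lower member was PSMC5 at -0.79 (adjusted p = 0.01).

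A fit over all 5 libraries scored the RBMS1 level -1 in knockdown, 0 in both controls and 1 in overexpression, and held the vector system (sh or pCDH) as a covariate. It asks whether members follow RBMS1 across both arms. It called 0 of 45 members in edgeR's quasi-likelihood test, against 0 of 14523 genes (0%). At an unadjusted p under 0.05 it listed 3 of 45 members, a share near the 6.62% of all genes. They were PSMB8 at 1.12 log2 per level (SE 0.40), PSMC2 at 0.99 (SE 0.43) and PSMB2 at 0.90 (SE 0.40). Each had an edgeR adjusted p of 0.718. DESeq2 called 0 members, against 0.386% of genes, and limma-voom 0 members and 0 genes. The members' median was 0.21 per level, against 0.03 over all genes. Leaving out a control left only 1 arm to inform the level, because the vector covariate takes up the other arm. The members' median was then -0.05 without the pCDH control, the knockdown contrast with its sign turned. It was 0.49 without the sh control, from overexpression against pCDH alone.

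Other genes of the pathway, 26 in number, were read beside the subunits. In knockdown 0 passed edgeR's threshold, and the median was 0.03. The ubiquitin and ribosomal fusion gene RPS27A at -1.10 (SE 0.47) and the small lid subunit SEM1 at -1.05 (SE 0.54) were past 2-fold. Both were lower, against 8.5% of all genes, each with an edgeR adjusted p of 0.828. In overexpression the median was 0.31, with 3 genes (11.5%) at least 2-fold higher, against 16.3% of all genes, and 1 (3.85%) lower, against 17.8%. Among the higher ones, the regulator chaperone PAAF1 stood at 1.02 (0.64 to 1.41) and DDI2, the protease that activates NFE2L1, at 1.37 (1.11 to 1.63). NFE2L1, the transcription factor that drives proteasome genes when the proteasome is inhibited, stood at -1.58 (-1.66 to -1.50), but at 0.23 against the sh control. The median of the 26 genes was -0.02 against that control.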

How the data were processed

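Members, roles and gene lists were chosen with earlier results of these data known. The authors deposited RSEM expected counts, TPM and FPKM per gene, per the file headers, and per arm a comparison table with normalised mean counts (a signal), log2 fold changes and p-values, per the file headers. RSEM 1.3.1, STAR 2.4.2, DESeq2 and Bowtie are listed, without roles, per the submitters' processing notes. The authors' genome build and gene models were not given in the sources used here. Coordinates, coding lengths, 30-mers and GC content come from GENCODE 29 (GRCh38), which matched 58656 of 58929 identifiers, all 48 members among them; promoters come from RefSeq.

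Expected counts were rounded. Knockdown (2 libraries against 1) and the level fit used edgeR 4.0.16 in R 4.3.3 (robust quasi-likelihood test, TMM, filterByExpr, Benjamini-Hochberg over all genes), with DESeq2 1.42.0 and limma 3.58.1 as alternatives. These fits have 1 and 2 residual degrees of freedom, and a single control has to be taken to vary as the hairpin libraries do. Overexpression ratios are of TMM-scaled counts with exact conditional 95% intervals. The scripts were tested on simulated data. Full values were given for catalytic subunits, for members past 2-fold and, per role, for the highest and lowest overexpression ratio and the smallest knockdown p. For pathway genes, those past 2-fold were named, except a few genes that are not reported here. Coding RPKM is a measure added after the data were seen.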

Additional observations from a re-analysis of the deposited data

How the results depend on the processing

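Low depth limits PSMC1, PSMB9 and PSMG4, and with 1 or 2 libraries a group no setting gives a replicate check for overexpression. In every setting run, 0 members passed the threshold in knockdown and in the level fit. No paired analysis was possible because the labels give no shared replicate numbers. The cause of each move below was not tested.

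The knockdown median (0.09) was 0.66 with library size scaling, which moves the median of all genes to 0.62, 0.39 with the pCDH library as control, 1.25 by TPM and 0.65 by FPKM; with 1 hairpin left out it ran from -0.12 to 0.0913. Members past 2-fold in knockdown (2) were 6 with library size scaling, 0 at a mean CPM of at least 5, which removes PSMC1, and 13 with the pCDH control. Of these 13, 12 were higher, against 18.1% of genes, and 1 was lower, against 15.1%. Shares of all genes were not computed for the other settings, so their counts cannot be set against a background.

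The overexpression median (0.49) was 0.35 with library size scaling and 0.26 with the sh control. It was 0.29 with the GC trend of the coding sequence taken out and 0.44 with that of the whole transcript. By TPM it was -0.14 with a pseudocount of 1 or of 0.1, where all genes had medians of -0.66 and -0.83. The authors' deposited table had a median of 0.32, but its values are not the same ratio rescaled. Members at least 2-fold higher (16) were 4 with the sh control, against 11.5% of genes. They were 8 with the GC trend of the coding sequence taken out, against 10.3%, and 11 with that of the whole transcript, against 10.65%. They were 4 by TPM with a pseudocount of 1 and 5 with 0.1. Members at least 2-fold lower (1) were 2 with library size scaling, 2 by FPKM, 10 by TPM with a pseudocount of 1 and 11 with 0.1. They were 0 with the GC trend of the coding sequence taken out, against 10.1% of genes, and 0 with that of the whole transcript, against 10.7%. Shares of all genes were not computed for library size scaling, FPKM or TPM, so those counts cannot be set against a background. Directions turned with the sh control for PSMA5 (-0.11), PSMB2 (-0.54), PSMB3 (-0.41), PSMB8 (-0.20), PSMB9 (-0.063), PSMD5 (-0.020) and PSMG4 (0.076), and by TPM for PSME1 (-0.21 with either pseudocount). The level median (0.21) was -0.16 with library size scaling, where that of all genes was -0.35. It was 0.29 without sh1088 and 0.26 without sh1196. The median was 0.49 without the sh control, -0.05 without the pCDH control and -0.10 without the overexpression library. In these last settings only 1 arm informs the level, so they are no check across both arms.

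The members' share of counts was given of nuclear protein-coding genes (0.725% and 0.745% in sh1088 and sh1196, 0.751% in the sh control, 0.798% in overexpression, 0.561% in the pCDH control). By expected counts, which ignore length, PSMB8 took 22.0% and 21.5% of its pair in sh1088 and sh1196, 26.9% in the sh control, 26.7% in overexpression and 12.5% in the pCDH control. PSMB9 took 11.8% and 9.05% in sh1088 and sh1196, 8.63% in the sh control, 7.01% in overexpression and 4.21% in the pCDH control. PSMB10 took 15.2% in sh1088, 22.7% in the sh control and 17.2% in the pCDH control. Shares by FPKM equal those by TPM within a library by definition, apart from rounding, so they are no separate check.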
